A study of Mus musculus with 16 samples.

Results

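Interferon-stimulated genes are described here across 3 macrophage populations of the mouse heart and blood monocytes. The set is a fixed list of 37 genes. Probes were matched to it by gene symbol, and the brightest probe on average was used for each gene. Of the 37 genes, 36 had a probe and were tested among 21980 genes in all, and Ifi205 had none that matched. The 36 genes had 50 probes in all. Hearts and blood came from untreated C57BL/6 mice, an inbred strain carrying no engineered allele in the labels, whose age and sex the labels do not give. CCR2+ Mac were CD45+MerTK+CD64+ cells without surface Ly6c that were high for the chemokine receptor CCR2 and for MHC class II. MHC-IIHi Mac passed the same CD45, MerTK, CD64 and Ly6c gates, lacked CCR2, were high for MHC class II and low for CD11c. MHC-IIlo Mac also passed them, lacked CCR2 and CD11c and were low for MHC class II. Ly6cHi Mono were monocytes with high Ly6c from blood, whose preparation the labels do not describe apart from that of the heart. Each group had 4 arrays, 16 in all, from 1 ng of RNA per sample. The labels number the replicates but do not say that they came from separate mice or whether a sample pooled mice, so p-values measure the spread between these samples.

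Type I interferons are secreted proteins that bind a receptor pair on the cell surface and act through the kinases JAK1 and TYK2. These lead to a complex that holds STAT2 and IRF9 and binds the interferon-stimulated response element, a short DNA sequence ahead of the genes described here. Interferon-gamma acts on another element, the GAS. The products block viruses at entry, replication, translation and budding, sense foreign nucleic acids, or feed back on the signal. Macrophages and monocytes keep a low level of many of these transcripts without infection.

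The response element could be read in the promoters. RefSeq's promoter table (GRCm38.p6, 250 bases before to 50 after the transcription start, 300 in all) held 27 of the 37 genes. It did not list Mx1, Mx2, Oas2, Usp18, Zbp1, Dhx58, Rtp4, Parp14, Ifi27l2a and Ifi204. The core of the response element, searched on both strands as GAAA, any 2 bases and GAAA again, was in the window of 17 of the 27 (63.0%) and of 3.99% of the 27025 genes in the table. The same letters followed by CT, a subset of these matches, were in 10 of the 27 (37%) and in 0.303% of all. TTCNNNGAA, the core of the GAS, searched alike, was in 9 of the 27 (33.3%) and in 9.55% of all. A match is a description of the letters and not evidence of binding. The 150 bases before the start are printed for 6 genes, in the direction of the gene, with the core or its reverse complement in capitals. Of these, 4 are shown because they carry results of the comparisons with monocytes (Ifit1, Oas3, Bst2, Samhd1). Gbp2 is shown because it differed between macrophage groups when the slide was modelled, and Isg15 because it bears the name of the family.
Ifit1 (chr19:34640739-34640888, plus strand): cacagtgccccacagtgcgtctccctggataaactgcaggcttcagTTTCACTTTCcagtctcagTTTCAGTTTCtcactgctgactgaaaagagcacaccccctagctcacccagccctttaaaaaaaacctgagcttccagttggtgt
Oas3 (chr5:120777660-120777809, minus strand): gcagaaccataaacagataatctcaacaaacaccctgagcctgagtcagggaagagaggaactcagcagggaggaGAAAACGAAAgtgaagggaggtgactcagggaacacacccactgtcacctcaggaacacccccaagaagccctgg
Bst2 (chr8:71537473-71537622, minus strand): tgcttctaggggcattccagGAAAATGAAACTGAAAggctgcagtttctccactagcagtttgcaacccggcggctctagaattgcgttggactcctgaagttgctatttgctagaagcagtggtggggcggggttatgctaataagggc
Gbp2 (chr3:142620513-142620662, plus strand): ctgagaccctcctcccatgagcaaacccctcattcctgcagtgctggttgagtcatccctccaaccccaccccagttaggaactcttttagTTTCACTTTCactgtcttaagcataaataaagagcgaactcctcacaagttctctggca
Isg15 (chr4:156200819-156200968, minus strand): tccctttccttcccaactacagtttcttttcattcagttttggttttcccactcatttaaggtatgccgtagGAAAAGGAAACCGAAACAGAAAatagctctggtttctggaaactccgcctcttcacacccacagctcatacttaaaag
Samhd1 (chr2:157135097-157135246, minus strand): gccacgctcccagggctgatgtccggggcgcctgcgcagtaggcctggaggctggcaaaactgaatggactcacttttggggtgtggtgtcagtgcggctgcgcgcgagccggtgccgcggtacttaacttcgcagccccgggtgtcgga
Counted from the transcription start, the matches of Ifit1 began at -104 and -85, that of Oas3 at -75 and that of Gbp2 at -59. Bst2 had 2 matches that share bases, at -130 and -124, and Isg15 had 3, at -78, -72 and -66. In Samhd1 these letters were not in the 300-base window, which held TTCNNNGAA at -235.

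Each level below is the log2 intensity of 1 probe minus the log2 of the 75th percentile of its array, so 0 is the 75th percentile and each step of 1 doubles the signal. Levels of different probes are not compared. Values in a group are listed in the order of replicates 1, 2, 3 and 4. The replicate number is also the slide, and each slide held 1 array of every group. Every group kept to 1 position on its slides, and an effect of position cannot be told apart from one of the group. Between 52.8% and 69.3% of the spots of an array were well above background, and the 75th percentile lay between 819 and 1670 intensity units. Monocyte arrays were dimmer, with 75th percentiles of 819, 955, 822 and 996 and 52.8% to 60.1% of spots above background. Macrophage arrays had 1160 to 1670, apart from 941 on MHC-IIHi Mac 3, and 58.1% to 69.3%. Array brightness thus went with the comparisons to monocytes, and its part in them was not tested. In the deposited table of normalised values, all 16 columns matched the scanner array of another sample, and 12 matched one of another group. Groups here follow the labels of the scanner files. The gates could be checked in them: Ccr2 read 0.85, 0.63, 0.42 and 0.55 in CCR2+ Mac, -3.30, -2.85, -3.97 and -2.87 in MHC-IIHi Mac and -4.04, -3.72, -4.75 and -2.93 in MHC-IIlo Mac. Of 8 macrophage marker genes tested, 6 were higher in each macrophage group than in monocytes, and Mertk, C1qc and Mrc1 stayed at background in all monocyte arrays.

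Other cells also moved with the groups. All 5 cardiomyocyte genes tested were higher in each macrophage group than in monocytes. Their summed signal was 13.7 to 25.1 times the array's 75th percentile on the heart arrays and 1.89 to 2.47 times in monocytes, where Tnnt2 and Actc1 were not well above background. Of 4 fibroblast genes tested, 3 were higher in each macrophage group too (summed signal 3.80 to 10.5 against 1.15 to 1.39). Col1a1 and Dcn were at background in monocytes, and Pdgfra was at background in every group. Of 5 Ly6cHi monocyte markers tested, 4 were higher in CCR2+ than in either other macrophage group. Their sum was 6.28 to 24.3 in CCR2+, 2.71 to 3.50 in MHC-IIHi, 2.86 to 3.76 in MHC-IIlo Mac and 150.8 to 209.3 in monocytes. Of 5 Ly6cLow monocyte markers tested, 3 were lower and 1 higher in CCR2+ Mac than in monocytes, and 4 were lower in MHC-IIHi and in MHC-IIlo Mac. Their sum was 12.9 to 24.1, 9.59 to 15.5 and 9.95 to 12.7 in CCR2+, MHC-IIHi and MHC-IIlo Mac and 55.2 to 84.2 in monocytes, none was at background in any group, and 1, Treml4, was higher in CCR2+ than in either other macrophage group. Of 4 dendritic cell genes tested, Cd209a was higher in CCR2+ than in either other macrophage group, and the 6 with a probe summed to 1.51 to 3.00, 1.02 to 1.44, 0.821 to 1.76 and 1.58 to 2.64 in CCR2+, MHC-IIHi, MHC-IIlo Mac and monocytes, with Xcr1 at background in all 3 macrophage groups. Of 5 neutrophil genes tested, 1 was higher and 2 lower in CCR2+ Mac than in monocytes, and 1 was lower in MHC-IIHi and in MHC-IIlo Mac. Mmp8 was lower in each macrophage group, and Ly6g was higher in CCR2+ Mac, at a mean of -1.60 against -2.81. The 7 with a probe summed to 0.538 to 1.73 on the heart arrays and 4.46 to 5.54 in monocytes, with S100a8 and Ngp at background in all 3 macrophage groups. Plasmacytoid dendritic cells are known as strong producers of type I interferon. The 7 genes listed for them summed to 33.6 to 46.4, 37.3 to 49.3, 43.0 to 49.4 and 44.5 to 48.9 in CCR2+, MHC-IIHi, MHC-IIlo Mac and monocytes. Most of each sum was Siglech, at means of 5.14, 5.23, 5.29 and 5.39. None was at background on all arrays of a group, and 2 were higher in each macrophage group than in monocytes. Cox6a2 averaged 0.21, 0.85 and 0.80 against -1.91 in monocytes, and Tcf4 1.86, 2.23 and 2.33 against 1.21. This is also the direction of the cardiomyocyte genes, and the source of these signals was not tested. The part of these cells in the results was not tested. In bulk samples, fewer cells of a type and less RNA per cell cannot be told apart.

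Against monocytes, interferon-stimulated genes moved in both directions. Ifitm3, Samhd1, Oas3 and Zbp1 were lower in all 3 macrophage groups. Oas2 was higher in all 3. The share of all genes called alike in all 3 was not computed, so these counts have no background beside them. In CCR2+ Mac, 5 of the 36 genes were higher (Ifit1, Ifit2, Oas2, Oasl1, Bst2) and 5 lower (Ifi27l2a and the 4 above), where limma called 9.92% of all genes higher and 11.9% lower at an adjusted p under 0.05. In MHC-IIHi Mac, 1 was higher (Oas2) and 9 lower (Dhx58, Stat2, Cmpk2, Isg20, Ifi27l2a and the 4), beside 10.1% and 11.4% of all genes. In MHC-IIlo Mac, 3 were higher (Ifit1, Oas2, Bst2) and 9 lower (Dhx58, Stat2, Mx1, Mx2, Ifi204 and the 4), again beside 10.1% and 11.4%. The mean of the 3 macrophage groups gave 4 higher and 9 lower, beside 12.5% and 15.2%. As shares of the 36, the CCR2+ counts are 13.9% each way, near the background, and the MHC-IIHi and MHC-IIlo counts are 2.78% and 8.33% higher and 25.0% lower.

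The median difference of the 36 genes from monocytes was -0.14 in CCR2+, -0.42 in MHC-IIHi and -0.45 in MHC-IIlo Mac, where the medians of all genes were -0.10, -0.05 and -0.06. These comparisons share the monocyte arrays. With the slide as a block, all 32 calls of these 3 comparisons were called again, and the counts became 5 higher and 7 lower in CCR2+ Mac, 1 and 15 in MHC-IIHi Mac, and 4 and 18 in MHC-IIlo Mac, beside 14.1% and 19.7%, 13.6% and 18.1%, and 13.9% and 18.3% of all genes. For the mean of the 3 groups they became 4 and 17, beside 16.5% and 21.9%. In all, 17 of the 36 genes were called in at least 1 of the 7 comparisons, beside 31.5% of all genes, and 25 with the block, beside 45.8%.

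**Figure D1:**
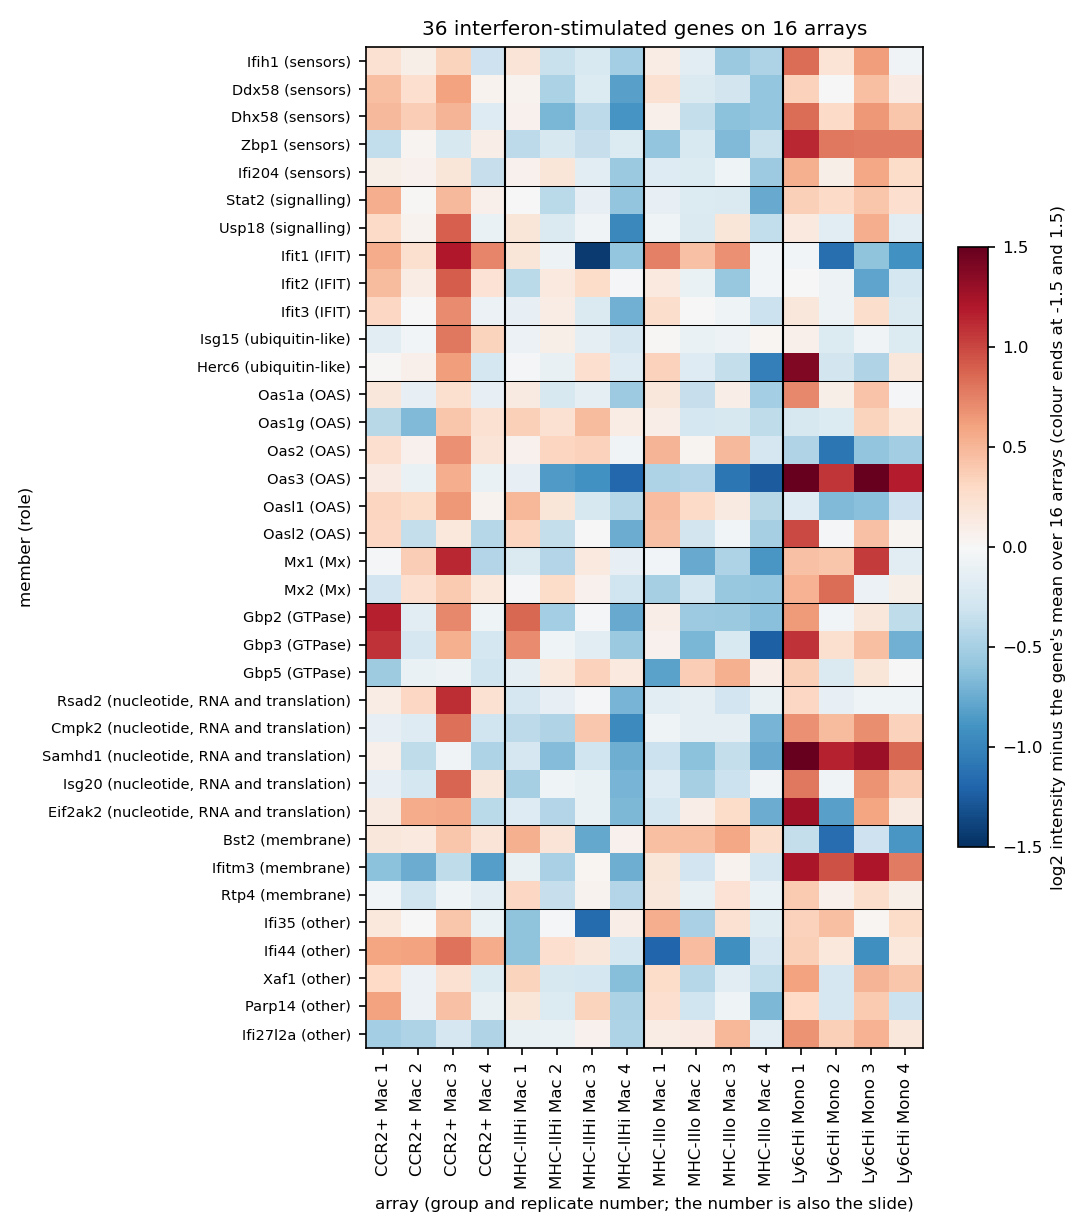
Level of each of the 36 genes (rows, by role) on each of the 16 arrays (columns, by group and replicate number), as log2 intensity minus the mean of that gene over all arrays; red is above and blue below that mean. Samhd1, Oas3, Zbp1 and Ifitm3 are red on all 4 monocyte arrays, and column CCR2+ Mac 3 is red for most genes.

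Of the membrane proteins, Ifitm3 was lower and Bst2 higher than in monocytes. Ifitm3 stops virus fusion in endosomes. Its level was 5.04, 4.91, 5.28 and 4.84 in CCR2+ Mac, 5.55, 5.18, 5.68 and 4.92 in MHC-IIHi Mac and 5.84, 5.37, 5.72 and 5.40 in MHC-IIlo Mac. In monocytes it was 6.88, 6.62, 6.87 and 6.44. Every monocyte array was above every macrophage array. The differences from monocytes were -1.68, -1.37 and -1.12 (SE 0.20 each) in CCR2+, MHC-IIHi and MHC-IIlo Mac, in that order, as for all triplets below, with adjusted p = 2.69e-05, 0.000148 and 0.000832. In CCR2+ Mac this is a 3.21-fold lower signal.

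Bst2, or tetherin, holds budding virions at the cell surface, and was higher in CCR2+ and MHC-IIlo Mac than in monocytes. Its level was 2.16, 2.13, 2.41 and 2.18 in CCR2+ Mac, 2.53, 2.19, 1.22 and 2.06 in MHC-IIHi Mac and 2.44, 2.44, 2.57 and 2.25 in MHC-IIlo Mac. Monocytes had 1.63, 0.85, 1.68 and 1.12. CCR2+ and MHC-IIlo Mac were above all monocyte arrays, and MHC-IIHi replicate 3 fell within the monocyte range. Differences were 0.90, 0.68 and 1.11 (SE 0.26 each), with adjusted p = 0.0201, 0.0774 and 0.00526. Rtp4, a carrier of receptors to the surface, differed by -0.35, -0.31 and -0.16 (SE 0.19 each), and with the block its adjusted p was 0.0394 in CCR2+ Mac.

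**Figure D2:**
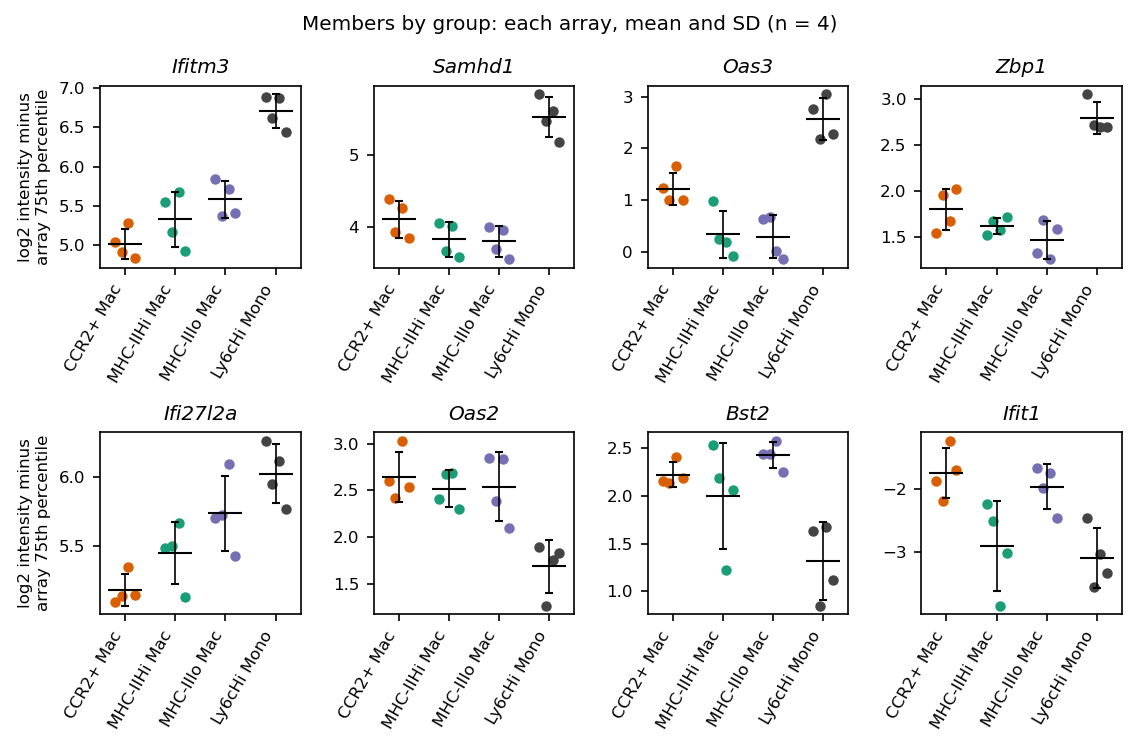
Level (log2 intensity minus the array's 75th percentile) of 8 genes in the 4 groups; each point is 1 array, and the bar and whiskers are the mean and SD of 4 arrays. Ifitm3, Samhd1, Oas3 and Zbp1 are higher on every monocyte array than on any macrophage array, and Oas2 is higher on every macrophage array than on any monocyte array.

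Of 5 genes for nucleotide and RNA enzymes, 1 was lower in CCR2+, 3 in MHC-IIHi and 1 in MHC-IIlo Mac than in monocytes. Of all genes, 11.9%, 11.4% and 11.4% were lower. None of the 5 was higher, beside 9.92%, 10.1% and 10.1% of all genes. Samhd1 degrades the nucleotides that reverse transcription needs. It read 4.39, 3.94, 4.27 and 3.85 in CCR2+ Mac, 4.06, 3.67, 4.01 and 3.59 in MHC-IIHi Mac and 4.00, 3.71, 3.96 and 3.56 in MHC-IIlo Mac. It read 5.84, 5.48, 5.60 and 5.18 in monocytes, and the macrophage and monocyte arrays did not overlap. The differences of -1.41, -1.69 and -1.72 (SE 0.20 each) correspond to folds of 2.66, 3.23 and 3.29, with adjusted p = 0.00012, 1.51e-05 and 1.21e-05. Both other Samhd1 probes were lower in all 3 groups as well, with differences of -1.83, -2.15 and -2.22 for one and -1.33, -2.08 and -2.03 for the other.

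Cmpk2, a mitochondrial nucleotide kinase, read 2.44, 2.37, 3.39 and 2.26 in CCR2+ Mac, 2.17, 2.11, 2.97 and 1.61 in MHC-IIHi Mac and 2.50, 2.42, 2.43 and 1.86 in MHC-IIlo Mac, against 3.25, 3.04, 3.26 and 2.91 in monocytes. Replicate 3 of CCR2+ and of MHC-IIHi Mac reached above the lowest monocyte array, and all MHC-IIlo arrays lay below it. Its differences were -0.50, -0.91 and -0.81 (SE 0.29 each), with adjusted p = 0.265, 0.0381 and 0.0624 and, with the block, 0.061, 0.00293 and 0.00578. Isg20, an RNA exonuclease, read 0.78, 0.64, 1.77 and 1.07 in CCR2+ Mac, 0.40, 0.83, 0.80 and 0.20 in MHC-IIHi Mac and 0.71, 0.40, 0.58 and 0.85 in MHC-IIlo Mac. With 1.70, 0.85, 1.58 and 1.28 in monocytes, the CCR2+ arrays overlapped them and both other groups lay just below. It differed by -0.29, -0.79 and -0.72 (SE 0.26 each), with adjusted p = 0.509, 0.0423 and 0.0666, the third becoming 0.0355 with the block. A second Isg20 probe was lower in MHC-IIHi (-1.32) and MHC-IIlo Mac (-1.24). Rsad2, or viperin, which makes a chain-ending nucleotide, differed by 0.42, -0.29 and -0.19 (SE 0.22 each). Eif2ak2, or PKR, which halts translation on double-stranded RNA, differed by -0.08, -0.64 and -0.45 (SE 0.37 each). Neither of these was called in any of the 7 comparisons.

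The OAS family makes the second messenger that switches on RNase L, and its members split. Oas3 read 1.23, 1.01, 1.66 and 1.00 in CCR2+ Mac, 0.98, 0.26, 0.20 and -0.07 in MHC-IIHi Mac and 0.65, 0.67, 0.02 and -0.14 in MHC-IIlo Mac. Monocytes had 2.75, 2.18, 3.04 and 2.29, all above the macrophage arrays. The differences of -1.34, -2.22 and -2.27 (SE 0.28 each) correspond to folds of 2.53, 4.67 and 4.81, with adjusted p = 0.00286, 2.9e-05 and 2.35e-05. Oas2 read 2.60, 2.41, 3.03 and 2.54 in CCR2+ Mac, 2.41, 2.67, 2.69 and 2.30 in MHC-IIHi Mac and 2.85, 2.39, 2.84 and 2.09 in MHC-IIlo Mac. Monocytes had 1.90, 1.26, 1.75 and 1.83, all below the macrophage arrays. Its differences were 0.96, 0.83 and 0.86 (SE 0.22 each), with adjusted p = 0.00541, 0.0128 and 0.0104. Oas2 and Oas3, neighbours in the OAS gene cluster, thus moved in opposite directions on the same arrays.

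Oasl1, which lacks the enzyme activity and restrains translation of Irf7, read 0.42, 0.37, 0.74 and 0.15 in CCR2+ Mac, 0.59, 0.27, -0.15 and -0.34 in MHC-IIHi Mac and 0.56, 0.38, 0.23 and -0.33 in MHC-IIlo Mac. Monocytes had -0.11, -0.57, -0.54 and -0.23, below all CCR2+ arrays, with replicates 2 and 3 below every macrophage array. The differences were 0.78, 0.45 and 0.57 (SE 0.24 each), with adjusted p = 0.0316, 0.232 and 0.119, and the third became 0.0438 with the block. Oas1a read 3.79, 3.49, 3.86 and 3.50 in CCR2+ Mac, 3.75, 3.37, 3.47 and 3.08 in MHC-IIHi Mac and 3.79, 3.27, 3.72 and 3.11 in MHC-IIlo Mac. Monocytes had 4.34, 3.71, 4.05 and 3.59, with overlap throughout. Its differences were -0.26, -0.51 and -0.45 (SE 0.22 each), with adjusted p = 0.469, 0.135 and 0.19 and, with the block, 0.0993, 0.00478 and 0.00957. Oas1a and Oas1g are near-identical copies, so their probes may take signal from each other. Oas1g differed by -0.12, 0.28 and -0.21 (SE 0.24 each), none of them called. Oasl2 differed by -0.44, -0.56 and -0.46 (SE 0.30 each), with adjusted p = 0.337, 0.23 and 0.344, and all 3 were lower with the block at 0.0105, 0.00259 and 0.00873.

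The nucleic acid sensors were lower than in monocytes or not called. Zbp1, which binds Z-form nucleic acid and can start necroptosis, read 1.55, 1.96, 1.68 and 2.02 in CCR2+ Mac, 1.52, 1.68, 1.57 and 1.72 in MHC-IIHi Mac and 1.32, 1.69, 1.26 and 1.59 in MHC-IIlo Mac. Monocytes had 3.05, 2.71, 2.70 and 2.69, all higher. The differences were -0.99, -1.17 and -1.32 (SE 0.17 each), with adjusted p = 0.000625, 0.000123 and 3.47e-05. A second Zbp1 probe differed by -0.44, -0.29 and -0.66, none of them called, so the size of the Zbp1 difference rests on the brighter probe. Dhx58, or LGP2, a regulator of the RIG-I family, read 2.11, 2.00, 2.14 and 1.43 in CCR2+ Mac, 1.69, 0.94, 1.24 and 0.74 in MHC-IIHi Mac and 1.70, 1.27, 1.01 and 1.05 in MHC-IIlo Mac. Its monocyte levels of 2.46, 1.91, 2.28 and 2.04 overlapped those of CCR2+ Mac and lay above all MHC-IIHi and MHC-IIlo arrays. The differences were -0.26, -1.02 and -0.92 (SE 0.24 each), with adjusted p = 0.527, 0.00648 and 0.0127.

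Ifi204, a DNA sensor of the p200 family, read 2.38, 2.36, 2.48 and 1.95 in CCR2+ Mac, 2.36, 2.48, 2.13 and 1.74 in MHC-IIHi Mac and 2.10, 2.09, 2.23 and 1.75 in MHC-IIlo Mac. Monocytes had 2.82, 2.38, 2.87 and 2.57, above all MHC-IIlo arrays and within reach of the others. The differences were -0.37, -0.48 and -0.62 (SE 0.20 each), with adjusted p = 0.23, 0.117 and 0.0412, and the second became 0.0236 with the block. A second Ifi204 probe was lower in MHC-IIHi (-0.98) and MHC-IIlo Mac (-0.93). Ddx58, or RIG-I, and Ifih1, or MDA5, sense viral RNA in the cytoplasm. Ddx58 differed by 0.11, -0.59 and -0.44 (SE 0.22 each) and Ifih1 by -0.32, -0.63 and -0.68 (SE 0.24 each), with no call. With the block both were lower in MHC-IIHi (adjusted p = 0.00607 and 0.00681) and in MHC-IIlo Mac (0.0296 and 0.00437). The second Ifih1 probe had the opposite sign, at 0.51, 0.20 and 0.11 with no call.

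The IFIT proteins bind viral RNA and block its translation. Of the 3 genes, 2 were higher in CCR2+, 0 in MHC-IIHi and 1 in MHC-IIlo Mac than in monocytes. Of all genes, 9.92%, 10.1% and 10.1% were higher. Ifit1 was a dim probe, well above background on all CCR2+ and MHC-IIlo arrays, 3 of 4 MHC-IIHi arrays and 1 of 4 monocyte arrays. It read -1.87, -2.19, -1.23 and -1.69 in CCR2+ Mac, -2.24, -2.51, -3.86 and -3.02 in MHC-IIHi Mac and -1.67, -1.99, -1.74 and -2.47 in MHC-IIlo Mac. In monocytes it read -2.47, -3.56, -3.04 and -3.34. CCR2+ Mac lay above all monocyte arrays and MHC-IIlo Mac touched their upper end. The differences were 1.35, 0.19 and 1.13 (SE 0.34 each), with adjusted p = 0.01, 0.8 and 0.0264.

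Ifit2, also dim, was well above background on 15 of 16 arrays, the exception being a monocyte array. It read -1.76, -2.12, -1.32 and -2.01 in CCR2+ Mac, -2.63, -2.09, -1.96 and -2.26 in MHC-IIHi Mac and -2.09, -2.34, -2.80 and -2.28 in MHC-IIlo Mac. With -2.24, -2.31, -3.02 and -2.49 in monocytes, only the CCR2+ arrays were all above them. The differences were 0.71, 0.28 and 0.14 (SE 0.24 each), with adjusted p = 0.0466, 0.516 and 0.775. Ifit3, which steadies Ifit1 in a complex, read 2.76, 2.45, 3.17 and 2.37 in CCR2+ Mac, 2.33, 2.57, 2.24 and 1.74 in MHC-IIHi Mac and 2.72, 2.44, 2.39 and 2.13 in MHC-IIlo Mac. Monocytes had 2.62, 2.38, 2.72 and 2.23, overlapping throughout. Its differences of 0.20, -0.27 and -0.07 (SE 0.23 each) were not called in either fit.

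Of the signalling and ubiquitin-like genes, Stat2 alone was called. Stat2, a part of the response complex, read 1.06, 0.53, 1.01 and 0.59 in CCR2+ Mac, 0.51, 0.11, 0.39 and -0.08 in MHC-IIHi Mac and 0.39, 0.31, 0.30 and -0.25 in MHC-IIlo Mac. Monocytes had 0.87, 0.80, 0.93 and 0.76, within the CCR2+ range and above every MHC-IIHi and MHC-IIlo array. The differences were -0.05, -0.61 and -0.65 (SE 0.20 each), with adjusted p = 0.916, 0.0386 and 0.0272. Usp18 removes ISG15 from proteins and blocks the receptor. It read 2.26, 2.02, 2.86 and 1.86 in CCR2+ Mac, 2.14, 1.75, 1.92 and 1.00 in MHC-IIHi Mac and 1.91, 1.75, 2.14 and 1.59 in MHC-IIlo Mac. Monocytes had 2.11, 1.81, 2.51 and 1.81. All groups overlapped, and no Usp18 difference was called.

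Isg15, the ubiquitin-like protein itself, read 1.08, 1.19, 2.03 and 1.56 in CCR2+ Mac, 1.15, 1.33, 1.09 and 0.99 in MHC-IIHi Mac and 1.26, 1.13, 1.16 and 1.27 in MHC-IIlo Mac. Monocytes had 1.31, 1.03, 1.18 and 1.03. Apart from CCR2+ replicates 3 and 4, all values lay within 0.99 and 1.33. Its differences of 0.33, 0.00 and 0.07 (SE 0.20 each) were not called, and neither were those of Herc6, the ligase that attaches it in mice, of -0.09, -0.23 and -0.52 (SE 0.37 each).

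The Mx proteins are dynamin-like GTPases that trap viral nucleocapsids. Mx1 read -0.45, -0.06, 0.70 and -0.86 in CCR2+ Mac, -0.65, -0.87, -0.28 and -0.55 in MHC-IIHi Mac and -0.47, -1.18, -0.89 and -1.29 in MHC-IIlo Mac, with 0.01, -0.02, 0.63 and -0.59 in monocytes. Only MHC-IIlo Mac differed past the threshold, and their highest array was above the lowest monocyte array. The Mx1 differences were -0.17, -0.59 and -0.96 (SE 0.32 each), with adjusted p = 0.774, 0.239 and 0.0439. Mx2 read 0.04, 0.58, 0.72 and 0.49 in CCR2+ Mac, 0.31, 0.61, 0.40 and 0.03 in MHC-IIHi Mac and -0.17, 0.07, -0.24 and -0.26 in MHC-IIlo Mac. Monocytes had 0.84, 1.16, 0.24 and 0.42, and their values were all above those of MHC-IIlo Mac. The Mx2 differences were -0.21, -0.33 and -0.82 (SE 0.22 each), with adjusted p = 0.587, 0.375 and 0.0153. C57BL/6 mice are known to carry defective alleles of both Mx genes, so these are transcript levels only.

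The guanylate-binding proteins attack pathogen vacuoles and answer mainly to interferon-gamma. Gbp5 read 4.04, 4.48, 4.51 and 4.28 in CCR2+ Mac, 4.45, 4.74, 4.93 and 4.72 in MHC-IIHi Mac and 3.78, 4.95, 5.11 and 4.68 in MHC-IIlo Mac. Monocytes had 4.94, 4.37, 4.76 and 4.57, and no difference was called in either fit. Its second probe was higher in CCR2+ Mac than in monocytes by 0.79 (adjusted p = 0.0276), where the probe used differed by -0.33 ± 0.26, so the probes disagree for Gbp5. Gbp2 differed from monocytes by 0.32, -0.20 and -0.50 (SE 0.37 each) and Gbp3 by 0.01, -0.29 and -0.78 (SE 0.42 each). With the block both were lower in MHC-IIlo Mac (adjusted p = 0.0423 and 0.00352).

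Among the remaining genes, Ifi27l2a, a small mitochondrial protein, read 5.09, 5.13, 5.34 and 5.14 in CCR2+ Mac, 5.48, 5.50, 5.66 and 5.13 in MHC-IIHi Mac and 5.70, 5.72, 6.09 and 5.43 in MHC-IIlo Mac. Monocytes had 6.26, 5.95, 6.12 and 5.76, above all CCR2+ and MHC-IIHi arrays, and MHC-IIlo Mac reached into their range. The differences were -0.85, -0.58 and -0.29 (SE 0.19 each), with adjusted p = 0.00381, 0.0354 and 0.339. Xaf1, which promotes cell death, differed by -0.27, -0.52 and -0.49 (SE 0.25 each) with no call, and was lower with the block in MHC-IIHi and MHC-IIlo Mac (adjusted p = 0.0276 and 0.0363). Ifi35, Ifi44 and Parp14 were called in neither fit, with differences of -0.16, -0.70 and -0.25 (SE 0.28 each), 0.70, -0.05 and -0.42 (SE 0.35 each) and 0.18, -0.07 and -0.23 (SE 0.27 each).

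**Figure D3:**
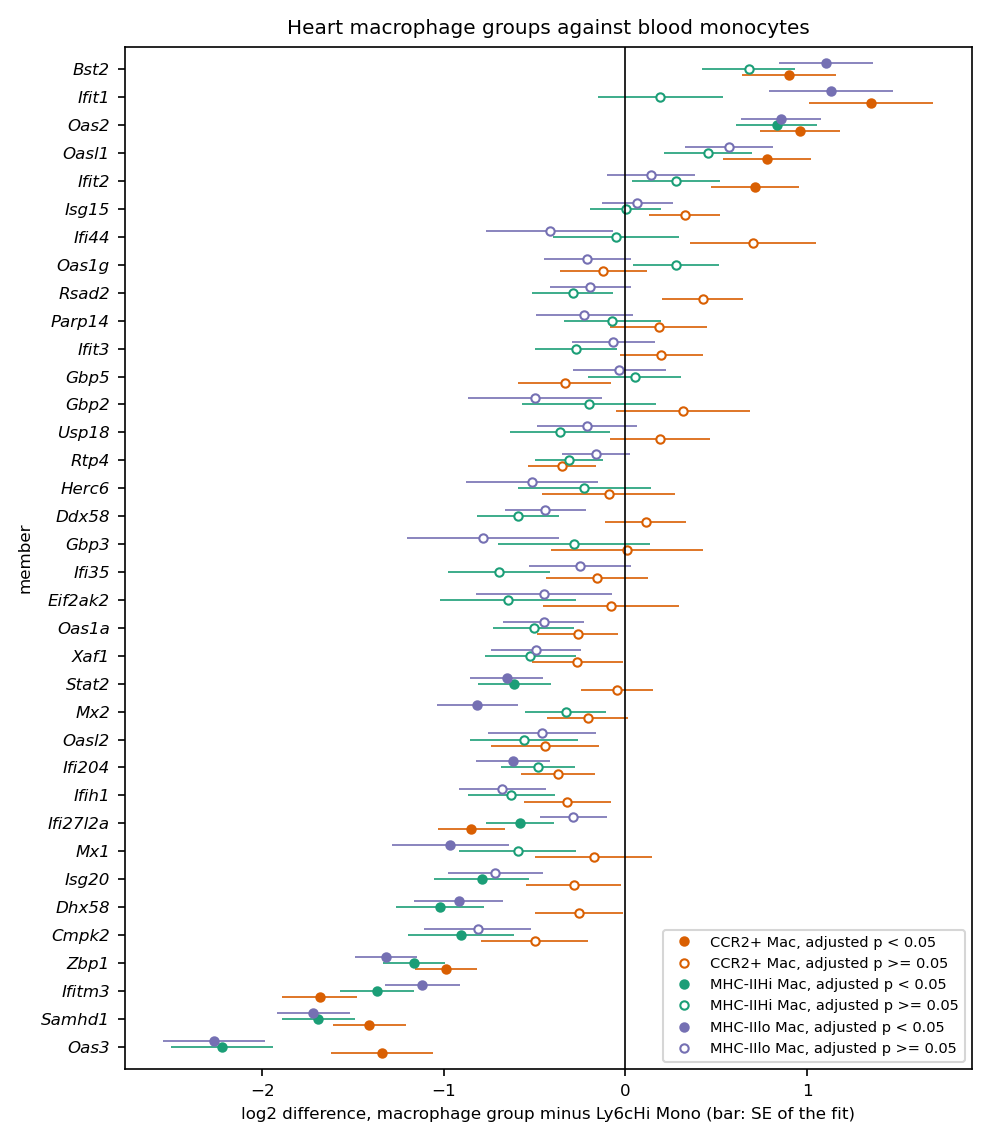
Difference of each of the 36 genes between each macrophage group and Ly6cHi Mono, as log2 values with the SE of the fit, ordered by the mean over the 3 groups. Filled points have an adjusted p under 0.05 by limma; Oas3, Samhd1, Ifitm3 and Zbp1 have all 3 points filled on the left of 0, and Oas2 has all 3 on the right.

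Of the 32 calls against monocytes in single macrophage groups, 20 were made in all 16 fits that left out an array, and 12 were not. In CCR2+ Mac, Ifit2 lost its call in 10 fits, without CCR2+ Mac 1, 3 and 4, Ly6cHi Mono 2, 3 and 4, MHC-IIHi Mac 2 and 4 and MHC-IIlo Mac 2 and 4 (adjusted p up to 0.146). Oasl1 lost it without CCR2+ Mac 1, 2 and 3 and Ly6cHi Mono 2 and 3 (up to 0.0943) and Bst2 without CCR2+ Mac 3 and Ly6cHi Mono 2 and 4 (up to 0.0668). In MHC-IIHi Mac, Isg20 lost it without CCR2+ Mac 4, Ly6cHi Mono 1, 3 and 4, MHC-IIHi Mac 1 and 4 and MHC-IIlo Mac 3 and 4 (up to 0.125) and Stat2 without Ly6cHi Mono 1, 2, 3 and 4 and MHC-IIHi Mac 2 and 4 (up to 0.121). Cmpk2 and Ifi27l2a lost theirs without Ly6cHi Mono 1, 2 and 3 and MHC-IIHi Mac 1, 2 and 4 (up to 0.127 and 0.116). The count in MHC-IIHi Mac went from 10 to 6 without Ly6cHi Mono 1, Ly6cHi Mono 3 or MHC-IIHi Mac 4. In MHC-IIlo Mac, Ifit1 lost its call without Ly6cHi Mono 2, 3 and 4 and MHC-IIlo Mac 1, 2 and 3 (up to 0.0794) and Mx1 without CCR2+ Mac 2, Ly6cHi Mono 1, 2 and 3, MHC-IIHi Mac 1, 2 and 4 and MHC-IIlo Mac 2, 3 and 4 (up to 0.141). Mx2 lost its call without Ly6cHi Mono 2 (0.0528), Stat2 without Ly6cHi Mono 1 and 3 and MHC-IIlo Mac 4 (up to 0.0975) and Ifi204 without CCR2+ Mac 2, Ly6cHi Mono 1, 3 and 4 and MHC-IIlo Mac 1, 2 and 4 (up to 0.127).

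Some calls also ended with another scaling, and only part of them are named here. Scaling on the median ended the Oas2 calls in MHC-IIHi and MHC-IIlo Mac (adjusted p = 0.103 and 0.0801) and that of Bst2 in CCR2+ Mac (0.0685). Background correction by normexp ended both Ifit1 calls (0.194 and 0.64), and quantile normalisation ended that of Ifi27l2a in CCR2+ Mac (0.108). Ifitm3, Samhd1, Oas3 and Zbp1 were called in all 3 groups under every alternative run. The split of 5 higher and 5 lower in CCR2+ Mac became 2 and 5 with normexp or median scaling. In MHC-IIHi Mac 1 and 9 became 0 and 5 with median scaling, 2 and 6 with quantile normalisation and 1 and 6 with normexp. In MHC-IIlo Mac 3 and 9 became 1 and 6 with median scaling. For the mean of the 3 groups 4 and 9 became 2 and 9 with normexp and 2 and 8 with median scaling. The share of all genes called with each scaling is not given, so these counts have no background beside them. Normexp moved the median of all genes by -0.15 in CCR2+, -0.16 in MHC-IIHi and -0.16 in MHC-IIlo Mac against monocytes, and median scaling moved it by -0.11 in MHC-IIHi Mac. Relative to all genes, the median of the 36 was -0.04 in CCR2+ Mac and 0.20 with normexp, so its direction there depends on the background correction. In MHC-IIHi and MHC-IIlo Mac it was -0.37 and -0.39, and with normexp -0.14 and -0.14.

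Between macrophage groups, none of the 36 genes was called without the block. Limma called 0 of the 36 genes between CCR2+ and MHC-IIHi Mac, beside 1.26% of all genes. It called 0 between CCR2+ and MHC-IIlo Mac, beside 2.83%, a count that became 1 without MHC-IIlo Mac 2. It called 0 between MHC-IIHi and MHC-IIlo Mac, beside 0.0728%. At an unadjusted p under 0.05, limma gave 7, 12 and 2 of the 36 genes (19.4%, 33.3% and 5.56%), beside 9.98%, 11.7% and 3.97% of all genes. In both CCR2+ comparisons 31 of the 36 genes had a positive difference, and the medians were 0.32 and 0.32 where those of all genes were -0.03 and -0.04. Both comparisons share the CCR2+ arrays. Between MHC-IIHi and MHC-IIlo Mac, 16 were positive, with a median of -0.04.

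Because the arrays of 1 slide deviated together, the fit with the slide as a block bears on these differences. With it, 3 of the 36 genes were higher in CCR2+ than in MHC-IIHi Mac, beside 1.25% of all genes. In CCR2+ against MHC-IIlo Mac 6 were higher and 2 lower, beside 2.87% and 2.93%, and none was called between MHC-IIHi and MHC-IIlo Mac, beside 0.35%. The RNA sensors Ddx58 and Dhx58 and the transcription factor Stat2 were higher in CCR2+ Mac in both comparisons.

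Ddx58 read 0.64, 0.44, 0.79 and 0.25 in CCR2+ Mac, 0.23, -0.29, -0.02 and -0.62 in MHC-IIHi Mac and 0.41, -0.03, -0.09 and -0.39 in MHC-IIlo Mac. Its differences were 0.70 and 0.55 (adjusted p = 0.0214 and 0.0394 with the block, 0.207 and 0.309 without), positive on 4 of 4 slides in both. Dhx58, with levels given above, differed by 0.77 and 0.66 (adjusted p = 0.0239 and 0.028 with the block, 0.207 and 0.24 without). Stat2 differed by 0.57 and 0.61 (adjusted p = 0.0416 and 0.0167 with the block, 0.273 and 0.158 without). Both were positive on 4 of 4 slides in both comparisons too.

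Against MHC-IIlo Mac only, the block added Oas3, Gbp2 and Gbp3 on the higher side. Oas3 differed by 0.93 (adjusted p = 0.0371 with the block, 0.119 without). Gbp2 read 0.24, -1.09, -0.20 and -0.99 in CCR2+ Mac and -0.83, -1.47, -1.48 and -1.55 in MHC-IIlo Mac, and the ranges overlapped although CCR2+ was higher on each slide. It differed by 0.82 (adjusted p = 0.0155 with the block, 0.396 without). Gbp3 read 0.19, -1.15, -0.37 and -1.17 in CCR2+ Mac and -0.83, -1.59, -1.13 and -2.12 in MHC-IIlo Mac and differed by 0.79 (0.0169 with the block, 0.512 without).

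Ifitm3 and Ifi27l2a were lower in CCR2+ than in MHC-IIlo Mac with the block, on each of the 4 slides. Their differences were -0.57 (adjusted p = 0.0121 with the block, 0.223 without) and -0.56 (0.0205 and 0.165). Both were also lower in CCR2+ Mac than in monocytes. Their means ran from CCR2+ through MHC-IIHi and MHC-IIlo Mac to monocytes, at 5.02 ± 0.20, 5.33 ± 0.35, 5.58 ± 0.23 and 6.70 ± 0.22 (SD, n = 4) for Ifitm3 and 5.17 ± 0.11, 5.44 ± 0.23, 5.74 ± 0.27 and 6.02 ± 0.22 for Ifi27l2a. Of the neighbours in this order, only MHC-IIlo Mac and monocytes differed past the threshold in either fit, and only for Ifitm3.

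**Figure D4:**
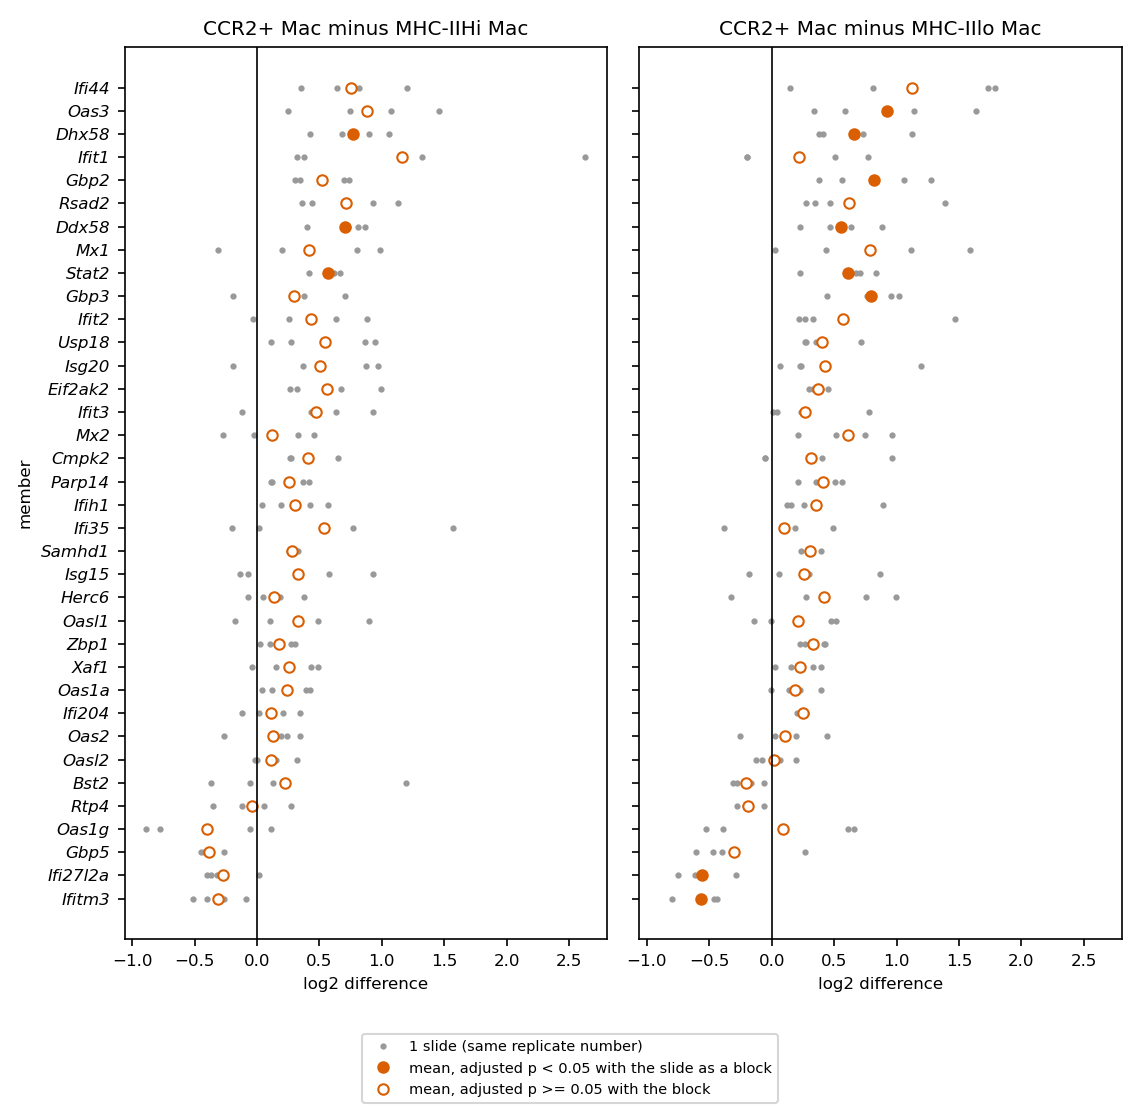
Difference of each of the 36 genes between CCR2+ Mac and MHC-IIHi Mac (left) and MHC-IIlo Mac (right), as log2 values; grey dots are the 4 slides and circles their mean, filled where the adjusted p with the slide as a block is under 0.05. Most circles lie right of 0 in both panels, and Ifitm3 and Ifi27l2a lie left of it.

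The blocked calls rested on few arrays. Against MHC-IIHi Mac the count of 3 became 1 without CCR2+ Mac 2 or CCR2+ Mac 4, and 0 without CCR2+ Mac 3 or MHC-IIHi Mac 2, 3 or 4. Against MHC-IIlo Mac the count of 8 became 3 without CCR2+ Mac 1, 4 without CCR2+ Mac 2 or 4, 1 without CCR2+ Mac 3 and 2 without MHC-IIlo Mac 3 or 4. Without CCR2+ Mac 3 the medians in the blocked fit were 0.23 and 0.23, still above 0. With median scaling as well as the block the counts were 2 and 5. With quantile normalisation and the block they were 3 and 9, all 9 higher in CCR2+ Mac. These counts, too, have no share of all genes called in the same fit beside them.

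The 36 genes also varied together within groups. On slides 1 and 3 the median deviation of the 36 genes from their group means was 0.18 and 0.14, and on slides 2 and 4 it was -0.10 and -0.27. All genes had medians of -0.08, -0.01, 0.06 and 0.04 on slides 1, 3, 2 and 4. Of the 36 genes, 28 were above 0 on slide 1, 28 on slide 3, 8 on slide 2 and 4 on slide 4. The signs of the 4 medians of the 36 genes were the same with median scaling, quantile normalisation and normexp. In pairs of the 36 genes (630 pairs), the median correlation of deviations from group means over the 16 arrays was 0.43, and 0.012 over pairs of all genes. With the slide means removed as well it was 0.21 and 0.014. Ddx58 and Dhx58 were among the closest pairs, at 0.92 before and 0.80 after removal of the slide. In every group, the share of spots well above background was lower on slides 1 and 3 than on slides 2 and 4. In the order of slides 1, 3, 2 and 4 it was 61.7%, 62.4%, 68.3% and 68.2% in CCR2+ Mac. MHC-IIHi Mac had 61.2%, 58.1%, 69.3% and 67.0%, and MHC-IIlo Mac 58.5%, 61.2%, 69.3% and 67.1%. Monocytes had 54.6%, 52.8%, 60.1% and 58.2%. The 75th percentile split alike. Arrays of the same number share a slide, and the labels do not say what else they share, so the values are descriptions. The cause was not tested.

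**Figure D5:**
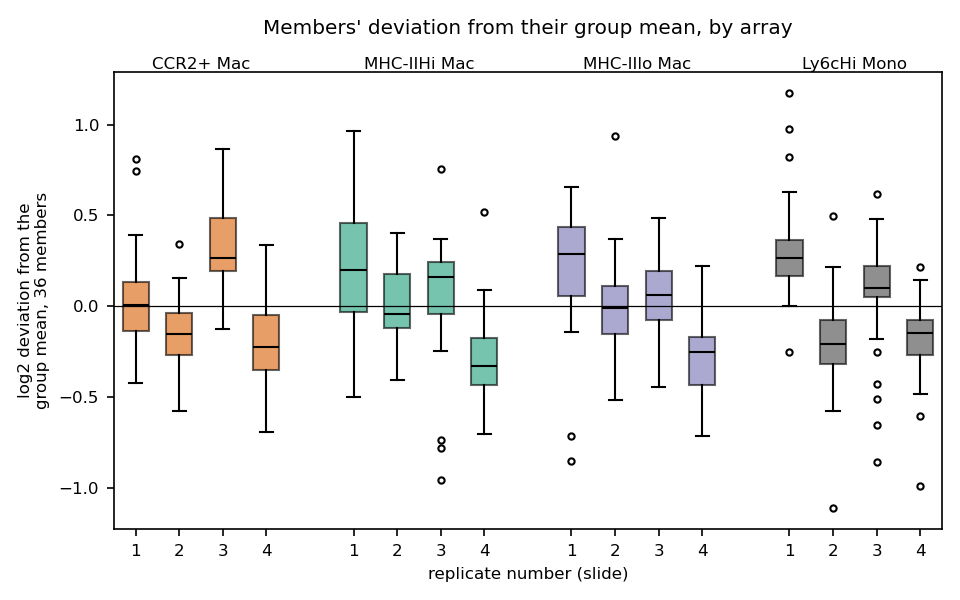
Deviation of the 36 genes from their group mean (log2) on each of the 16 arrays; boxes span the middle of the 36 values with the median as a line, whiskers reach 1.5 times the box, and circles are genes beyond. The medians of replicate 4 lie below 0 in all 4 groups, and that of CCR2+ replicate 3 lies highest in its group.

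CCR2+ replicate 3 stood out within its group. It had the highest level of the 4 CCR2+ arrays for 27 of the 36 genes, where 22.7% of all genes were highest on it. It exceeded the next array by 0.95 for Cmpk2, 0.79 for Rsad2, 0.76 for Mx1, 0.70 for Isg20 and 0.60 for Usp18. Another CCR2+ array was higher for Gbp3 by 0.55 and for Gbp2 by 0.44. The monocyte markers Plac8 and Ly6c1 were also highest on this array, at 0.53, 1.23, 2.78 and -0.85 and 2.37, 2.56, 3.68 and 1.97 over the 4 CCR2+ arrays, and their part in the result was not tested. Ccr2 itself was not, at 0.85, 0.63, 0.42 and 0.55.

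The genes around these targets were read from lists of the pathway. Of 11 interferon genes tested, limma called 0 in each of the 7 comparisons (at an unadjusted p under 0.05, 2, 0, 1 and 2 in CCR2+, MHC-IIHi and MHC-IIlo Mac and the macrophage mean against monocytes, and 1, 0 and 0 between macrophage groups), and with the block Ifna1 was higher in CCR2+ Mac than in monocytes (adjusted p = 0.0294). In the macrophage mean 2 were higher with the block, Ifna1 and Ifna5 (adjusted p = 0.0427 and 0.0449). With the block, 14.1% of all genes were higher in CCR2+ Mac and 16.5% in the mean. The unadjusted counts stand beside 32.8%, 30.7%, 31.1% and 36.4% of all genes against monocytes, in the order given. Between macrophage groups they stand beside 9.98%, 11.7% and 3.97%. Probes for these short, closely related genes may take signal from one another. Of 5 receptor chains tested, Il10rb, which serves IL-10 and interferon-lambda, was higher in all 3 macrophage groups than in monocytes, by 1.14, 1.58 and 1.69 (SE 0.20 each), with adjusted p = 0.000602, 2.22e-05 and 1.11e-05. Ifngr1, the ligand-binding chain for interferon-gamma, was lower in all 3, with differences of -1.01, -0.99 and -1.15 (SE 0.20 each) and adjusted p = 0.00205, 0.00225 and 0.000647. It read 3.82, 3.19, 3.54 and 3.27 in CCR2+ Mac, 3.82, 3.33, 3.44 and 3.32 in MHC-IIHi Mac and 3.67, 3.08, 3.32 and 3.19 in MHC-IIlo Mac. Monocytes had 4.80, 4.43, 4.26 and 4.38, all above the macrophage arrays. The type I receptor chains Ifnar1 and Ifnar2 were not called, with differences of 0.28, 0.48 and 0.15 (SE 0.28 each) and -0.10, -0.05 and -0.29 (SE 0.21 each).

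Of 11 kinases, STATs and IRFs tested, 5 were lower in the mean of the 3 macrophage groups than in monocytes and none higher. Of all genes, 15.2% were lower and 12.5% higher. Irf5 differed by -0.99 ± 0.19 (adjusted p = 0.00093), Stat3 by -0.88 ± 0.17 (0.000999), Irf8 by -0.73 ± 0.16 (0.00264; 0.08 with quantile normalisation) and Jak2 by -0.72 ± 0.16 (0.0033). Irf9, of the response complex, differed by -0.31 ± 0.20, with no call, and was lower with the block (adjusted p = 0.0454). Irf7, which amplifies the response, read 3.39, 3.49, 3.86 and 3.36 in CCR2+, 3.73, 2.70, 2.72 and 2.40 in MHC-IIHi and 3.26, 3.00, 2.94 and 2.79 in MHC-IIlo Mac and 3.95, 3.44, 3.73 and 3.52 in monocytes. It was lower in MHC-IIHi Mac (-0.77 ± 0.25, adjusted p = 0.039), a call lost without CCR2+ Mac 2, Ly6cHi Mono 1, 3 and 4 and MHC-IIHi Mac 2, 3 and 4 (up to 0.129).

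Of 10 brakes on the pathway tested, 4 were higher and 1 lower in the mean of the macrophage groups, beside 12.5% and 15.2% of all genes. Socs3, an inhibitor of STAT3 signalling, read 4.95, 4.52, 4.76 and 4.43 in CCR2+ Mac, 4.53, 4.29, 4.78 and 3.96 in MHC-IIHi Mac and 4.34, 3.95, 4.50 and 3.56 in MHC-IIlo Mac. Monocytes had 1.76, 2.27, 2.48 and 2.33. Its differences were 2.45, 2.18 and 1.87 (SE 0.25 each), with adjusted p = 4.01e-06, 9.63e-06 and 4.35e-05. Socs1, which inhibits the JAKs behind both interferon receptors, differed by 1.75, 1.66 and 1.38 (SE 0.26 each), with adjusted p = 0.000193, 0.00025 and 0.00113. Every macrophage array was above every monocyte array for both genes. Cish was not well above background on any array of MHC-IIHi Mac, MHC-IIlo Mac or monocytes. It was at least 2.11-fold higher in CCR2+ than in MHC-IIHi Mac (adjusted p = 0.000922) and at least 2.14-fold higher than in MHC-IIlo Mac (0.000596), with the dim group set at the lowest signal well above background on each array, and both calls ended with normexp (0.146 and 0.101). Ptpn6, the phosphatase SHP-1, was lower in the mean (-0.64 ± 0.15, adjusted p = 0.00505; 0.125 with quantile normalisation).

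Of 15 upstream sensors and adaptors tested, 5 were lower than in monocytes in the mean and none higher, beside 15.2% and 12.5% of all genes. The adaptor Traf3 differed by -1.05, -1.55 and -1.61 (SE 0.25 each), with adjusted p = 0.00753, 0.000357 and 0.000238, and the adaptor Myd88 by -0.79, -1.13 and -1.08 (SE 0.25 each), with adjusted p = 0.0356, 0.00423 and 0.00548. The CCR2+ call for Myd88 ended without CCR2+ Mac 2 and 4 and Ly6cHi Mono 1 and 3 (up to 0.11). The RNA receptor Tlr7 was lower in the mean (-0.70 ± 0.19, adjusted p = 0.0107), a call that ended with the mean of its probes (0.0838). Of 36 further interferon targets tested, 3 were higher and 9 lower in the mean, beside 12.5% and 15.2% of all genes. With the block 5 were higher and 15 lower, beside 16.5% and 21.9%. The chemokine Cxcl10 was among the higher ones, at 1.73, 0.70, 1.13 and 0.49 in CCR2+, 1.05, 0.21, 0.00 and -0.23 in MHC-IIHi and 0.35, -0.56, -0.45 and -1.66 in MHC-IIlo Mac against -2.50, -3.46, -3.13 and -2.05 in monocytes. Its differences were 3.80, 3.04 and 2.21 (SE 0.43 each), with adjusted p = 1.36e-05, 8.72e-05 and 0.00138, and all macrophage arrays were above all monocyte arrays.

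Slfn1, which restrains growth of T cells, differed by -2.36, -3.52 and -3.29 (SE 0.28 each), with adjusted p = 2.03e-05, 1.81e-07 and 3.64e-07, and Sp100, a nuclear body protein, by -0.83, -1.14 and -1.19 (SE 0.21 each), with adjusted p = 0.00957, 0.000912 and 0.000623, where the mean of its probes ended the calls in MHC-IIHi and MHC-IIlo Mac (0.0992 and 0.299). Ifitm6, of the same family as Ifitm3, differed by -6.14, -6.34 and -5.16 (SE 0.57 each), with signal well above background on 2 CCR2+, 2 MHC-IIHi and 4 MHC-IIlo arrays. Adjusted p for Ifitm6 was 1.55e-06, 7.08e-07 and 6.48e-06. Of the 7 MHC class I pathway genes tested, the immunoproteasome subunits Psmb10 (-0.79 ± 0.16, adjusted p = 0.00144) and Psmb8 (-0.57 ± 0.19, 0.0378) were lower in the mean, Psmb8 losing its call in 11 of the 16 fits without 1 array (up to 0.144). With the block 5 of these 7 were lower. Of all genes, 15.2% were lower in the mean without the block and 21.9% with it. Between CCR2+ and MHC-IIlo Mac, the DNA sensor Cgas was higher (0.72 ± 0.17, adjusted p = 0.0264), the chemokine Cxcl9 was higher (1.45 ± 0.36, 0.04) and Ifitm2 was lower (-0.73 ± 0.17, 0.031). These 3 calls ended without single arrays, in 6, 11 and 5 of the 16 fits, with adjusted p up to 0.102, 0.113 and 0.112. All 3 also ended with median scaling (0.197, 0.0935 and 0.214) and with only the 2 groups compared in the fit (0.143, 0.104 and 0.108). Cgas ended with the mean of its probes (0.127), Cxcl9 with no filter (0.0518) and Ifitm2 with quantile normalisation (0.0956). With the block all 3 were called (0.00395, 0.00615 and 0.00276).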

How the data were processed

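The members and all gene lists were chosen with earlier results of these data known. RNA was measured on 16 single-colour Agilent arrays, 4 per group. Per the labels and file headers, RNA was labelled with Cy5 and the authors' deposited scanner files, made with Agilent Feature Extraction 11.5.1.1 per the submitters' processing notes, hold a background-subtracted intensity in arbitrary units. The authors' deposited value table holds log2 signal; Partek is named there without version or step. Its columns correlated at 0.995 or more with another sample's array and at most 0.969 with their own, so it was not used. Headings of text columns were shifted in 15 files and were read by content. Of 39429 probes, 110 without an unmarked spot were dropped; 1377 control spots of 44397 were left out.

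The level of a probe is its log2 signal minus the log2 75th percentile of that array. Probes well above background on at least 4 of 16 arrays were kept (27643), the brightest per gene was used, and 21980 genes were tested in limma 3.58.1 (R 4.3.3) with 1 mean per group over all 16 arrays. P-values are two-sided and Benjamini-Hochberg adjusted within each of 7 comparisons, and an adjusted p under 0.05 is called. Same-numbered arrays deviated together: all 24 same-number pairs correlated above 0.1 (0.138 to 0.638, other pairs -0.535 to 0.492). A fit with the number, which is the slide, as a block was therefore run. The closest array did not always have the same number: CCR2+ Mac 1 correlated at 0.327 with Ly6cHi Mono 3 and 0.237 with Ly6cHi Mono 1. The labels do not say that same-numbered samples share mice or a day. The fit was tested on simulated data without a shared slide effect, so that test cannot speak to arrays that deviate together. Alternatives were normexp with offset 50, quantile and median scaling, no filter, a filter of 4 arrays in 1 group, the mean of probes, only the 2 groups compared, and each array left out. Combinations with the block were added after seeing the data. Genes with values on every array were those called in any comparison and the brightest tested of each role; list genes were named where called, at most 4 per list by smallest adjusted p, with the receptor chains, Irf9 and Ifna1 added after their values were seen. Some genes of the lists are counted there but not reported here by name. The number of arrays limits the precision.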

Additional observations from a re-analysis of the deposited data

Results flagged for a closer look

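In each group of 4 arrays the gap of the highest or lowest array to its neighbour was set against the range of the group, and 7 of 144 such groups passed Dixon's critical value. Chance flags about 1 in 20 groups. Zbp1 stood at 3.05 on Ly6cHi Mono replicate 1, above the next array at 2.71. Rsad2 stood at 3.34 on the same array, above 2.96. Ifi44 read -3.27 on Ly6cHi Mono replicate 3, below 3 arrays that began at -2.19. Cmpk2 read 3.39 on CCR2+ Mac replicate 3, above 2.44, and 1.86 on MHC-IIlo Mac replicate 4, below 2.42. Stat2 read -0.25 on MHC-IIlo Mac replicate 4, below 0.30, and Gbp2 read -0.83 on MHC-IIlo Mac replicate 1, above -1.47.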

How the results depend on the processing

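No call of the 36 genes changed sign under any alternative run. With the replicate number as a block, the counts of genes called were 3 for CCR2+ against MHC-IIHi Mac, 8 for CCR2+ against MHC-IIlo Mac, and, against monocytes, 16 for MHC-IIHi Mac, 22 for MHC-IIlo Mac and 21 for the mean of all macrophages; the block ended no call of the 36 genes and changed no other count by over 1.5 times. With the block and median scaling they were 2, 5, 17, 22 and 23, and with the block and quantile normalisation 3 and 9 for the first and the second comparison. Median scaling gave 5 and 7 for MHC-IIHi and MHC-IIlo Mac against monocytes, quantile normalisation 1 for CCR2+ against MHC-IIlo Mac and 8 for the mean against monocytes, and a fit of only MHC-IIHi Mac and monocytes gave 6. The median difference between MHC-IIHi and MHC-IIlo Mac was 0.0016 with the mean of all kept probes. Leaving out each array in turn, the count ran from 0 to 3 with the block (0 without) for CCR2+ against MHC-IIHi Mac and from 1 to 10 (0 to 1) against MHC-IIlo Mac. Against monocytes it ran from 10 to 13 (7 to 10) in CCR2+, 14 to 17 (6 to 11) in MHC-IIHi and 16 to 22 (8 to 14) in MHC-IIlo Mac, and from 17 to 21 (9 to 14) for their mean. The medians ran from 0.23 to 0.42 (0.21 to 0.43) and 0.23 to 0.42 (0.20 to 0.41) for CCR2+ against MHC-IIHi and MHC-IIlo Mac, and from -0.10 to 0.02 (-0.10 to 0.0861) between the latter. Against monocytes they ran from -0.29 to -0.04 (-0.28 to -0.03), -0.50 to -0.36 (-0.54 to -0.28), -0.49 to -0.35 (-0.57 to -0.29) and -0.39 to -0.29 (-0.40 to -0.24). For the counts outside the main and the blocked fit, the share of all genes called is not given. The causes were not tested. Where an array is left out, its group keeps 3. Signal over background limits Ifit1, Ifit2, Ifi44 and Eif2ak2, which were not well above background on all arrays.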
